A study of Mus musculus with 2 samples.

Results

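The interleukin-1 family and inflammasome genes described here were 8 genes taken by symbol from the 27998 genes of the count tables: Il1a, Il1b, Il1rn, Il1r2, Il18, Il18bp, Nlrp3 and Casp1. All 8 were measured in both libraries, and all 8 passed the filter on low counts. Single-cell RNA counts came from myeloid cells selected for CD11c out of tumours of PyMT mice, which carry the polyoma middle T antigen and form mammary tumours, on the C57BL/6N strain. Both libraries were labelled wild type, with no treatment, age or time given, and are called replicate 1 and replicate 2. No source used here says which promoter drove the antigen, or whether the libraries came from separate animals. With the library as a block, a p-value below measures how differences between classes vary between these libraries. It does not measure a known spread between animals. The labels hold no second group, so the comparisons are between classes of cells within the selection.

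Interleukin-1 alpha and beta are the founding cytokines of the family and act through the same receptor. Interleukin-1 beta and interleukin-18 are made as inactive precursors that caspase-1 cuts, and caspase-1 is activated on inflammasomes, among them the one nucleated by the sensor NLRP3. Il1rn encodes the receptor antagonist, Il1r2 a decoy receptor that binds interleukin-1 without signalling, and Il18bp a secreted protein that binds interleukin-18. RNA levels say nothing of cleavage or secretion. The Il1a, Il1b and Nlrp3 transcripts are known to be induced in myeloid cells by NF-kB signalling.

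The unit was the UMI, a molecular tag by which each captured RNA molecule is counted a single time. Replicate 1 had 17369071 of them in all and 1900 cells, and replicate 2 had 13317214 and 1216 cells. The median depth was 5670 UMIs per cell in replicate 1 and 7149 in replicate 2, and the libraries shared 2 cell barcodes. Classes were named from markers raised in clusters that the 8 genes did not build. The classes described were 782 C1q macrophage-like cells, 146 Spp1 macrophage-like cells, 323 resident macrophage-like cells marked by Folr2 and Cd209f, 337 cDC2-like, 165 cDC1-like and 74 mature DC-like cells, where DC stands for dendritic cell and cDC for conventional dendritic cell. A further 131 macrophage-like cells raised 7 of 10 markers of a Ccr2 macrophage list, Fcgr4, Ms4a4c and Cxcl9 among them, but not Ccr2 itself, which stood at 195 ± 90.7 CPM (SD, n = 2 libraries) against 133 ± 14.7 in C1q macrophage-like cells. They are called Fcgr4 Ms4a4c macrophage-like cells. A class of 327 cells raised only Retnla, Ear2 and Fn1 of 10 monocyte markers, while Ly6c2 was at 1.67 CPM, Vcan at 4.02 and Chil3 at 0. The monocyte label therefore went against those markers, and the class is called Retnla Ear2 Fn1 cells. Cells fell unevenly between the libraries, with 280 resident macrophage-like cells in replicate 1 and 43 in replicate 2, and 108 against 23 Fcgr4 Ms4a4c macrophage-like cells.

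On GRCm38 with the GENCODE M21 annotation, Il1a (ENSMUSG00000027399) lies on the minus strand at chr2:129299610-129309972 and Il1b (ENSMUSG00000027398) on the same strand at chr2:129364570-129371139, with 54597 bases between them. Il1rn (ENSMUSG00000026981) is on the same chromosome at chr2:24336853-24351494. Il1r2 (ENSMUSG00000026073) is at chr1:40074079-40125231, Il18 (ENSMUSG00000039217) at chr9:50554827-50581840 and Casp1 (ENSMUSG00000025888) at chr9:5298517-5307265. Il18bp (ENSMUSG00000070427) is at chr7:102014885-102018690 and Nlrp3 (ENSMUSG00000032691) at chr11:59541568-59566956. The 250 bases before the start site, from RefSeq on GRCm38.p6 and read 5′ to 3′ on the gene's strand, are given for the neighbours Il1a and Il1b, which were ordered differently over the classes, and for Il1r2, the member with the largest rise in cDC2-like cells. Capitals mark matches on either strand to any of 7 motifs: GAS (TTCNNNGAA), ISRE (GAAA, 2 bases of any kind, GAAA), kappaB (GGG, 5 bases of any kind, CC), C/EBP (TTGCNNAA), AP-1 (TGANTCA), CRE (TGACGTCA) and a PU.1 core (AGAGGAA).
Il1a, chr2:129309973-129310222, minus strand: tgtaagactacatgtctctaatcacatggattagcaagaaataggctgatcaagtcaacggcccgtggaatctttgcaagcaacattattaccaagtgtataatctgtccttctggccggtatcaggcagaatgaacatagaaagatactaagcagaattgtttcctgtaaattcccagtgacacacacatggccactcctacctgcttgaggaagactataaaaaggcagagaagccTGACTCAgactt
Il1b, chr2:129371140-129371389, minus strand: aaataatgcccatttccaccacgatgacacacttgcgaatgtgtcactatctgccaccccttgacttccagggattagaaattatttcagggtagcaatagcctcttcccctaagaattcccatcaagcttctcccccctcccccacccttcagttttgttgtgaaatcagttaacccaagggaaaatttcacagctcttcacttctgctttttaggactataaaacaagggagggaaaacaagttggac
Il1r2, chr1:40085843-40086092, plus strand: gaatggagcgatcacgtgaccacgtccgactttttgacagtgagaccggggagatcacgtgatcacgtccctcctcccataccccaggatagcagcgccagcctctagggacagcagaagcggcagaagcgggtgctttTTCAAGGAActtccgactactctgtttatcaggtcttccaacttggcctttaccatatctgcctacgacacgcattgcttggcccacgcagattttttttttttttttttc
The Il1a window held an AP-1 match (TGACTCA) at -12 from the start, and 6.75% of 32851 windows of this length held that motif. The Il1r2 window, which opens inside the annotated span of the gene, held a GAS match (TTCAAGGAA) at -111, a motif found in 7.02% of windows. No match to the 7 motifs was found in these letters of Il1b. Among the other members, Il18bp had a C/EBP match (TTGCGGAA) at -49, a motif in 9.56% of windows, and a kappaB match stood before a start of Il1rn, Nlrp3 and Casp1, a motif in 45.8% of windows. Il1rn also had an AP-1 match, and Nlrp3 and Casp1 each had a PU.1 core, found in 8.55% of windows. No match stood in the Il18 window. These matches are letters and not shown sites.

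Across 7 comparisons of classes, 29 of 56 member results passed edgeR's quasi-likelihood test at an adjusted p under 0.05, 6 of them higher and 23 lower. All 7 comparisons came from 1 fit of 24 sums of counts, 1 per library and class, with the library as a block, and p-values were adjusted over 4664 genes that built no cluster. Of the comparisons, 5 share the C1q macrophage-like cells and the other two share the cDC2-like cells, so they are not independent. Against C1q macrophage-like cells, 4 of 8 members were called in Spp1 macrophage-like cells, where 8.53% of all tested genes were called; 1 was higher and 3 lower, against 3.6% and 4.93% of all genes. In resident macrophage-like cells the count was 3 of 8, all lower, with a background of 9.09% (4.91% higher and 4.18% lower). The Fcgr4 Ms4a4c macrophage-like cells had 3 of 8 called, 1 higher and 2 lower, with 1.91% of all genes (1.33% higher and 0.579% lower). In Retnla Ear2 Fn1 cells 5 of 8 were called, 1 higher and 4 lower, with 22.9% of all genes (11.2% higher and 11.6% lower). In cDC2-like cells it was 5 of 8, 2 higher and 3 lower, with 23.9% (11.6% higher and 12.3% lower). Against cDC2-like cells, 5 of 8 were called in cDC1-like cells, 1 higher and 4 lower, with a background of 10.6% (4.37% higher and 6.22% lower). In mature DC-like cells 4 of 8 were called, all lower, with 12.7% (5.66% higher and 7.05% lower). The members' median log2 fold change was -0.71 in Spp1 macrophage-like cells, 0.03 in resident and 0.50 in Fcgr4 Ms4a4c macrophage-like cells, -0.60 in Retnla Ear2 Fn1 cells and -0.27 in cDC2-like cells. It was -1.91 in cDC1-like and -0.47 in mature DC-like cells, while the median of all tested genes lay between -0.17 and 0.01 in the 7 comparisons. The heat map of fold changes gives all 56 values.

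**Figure D1:**
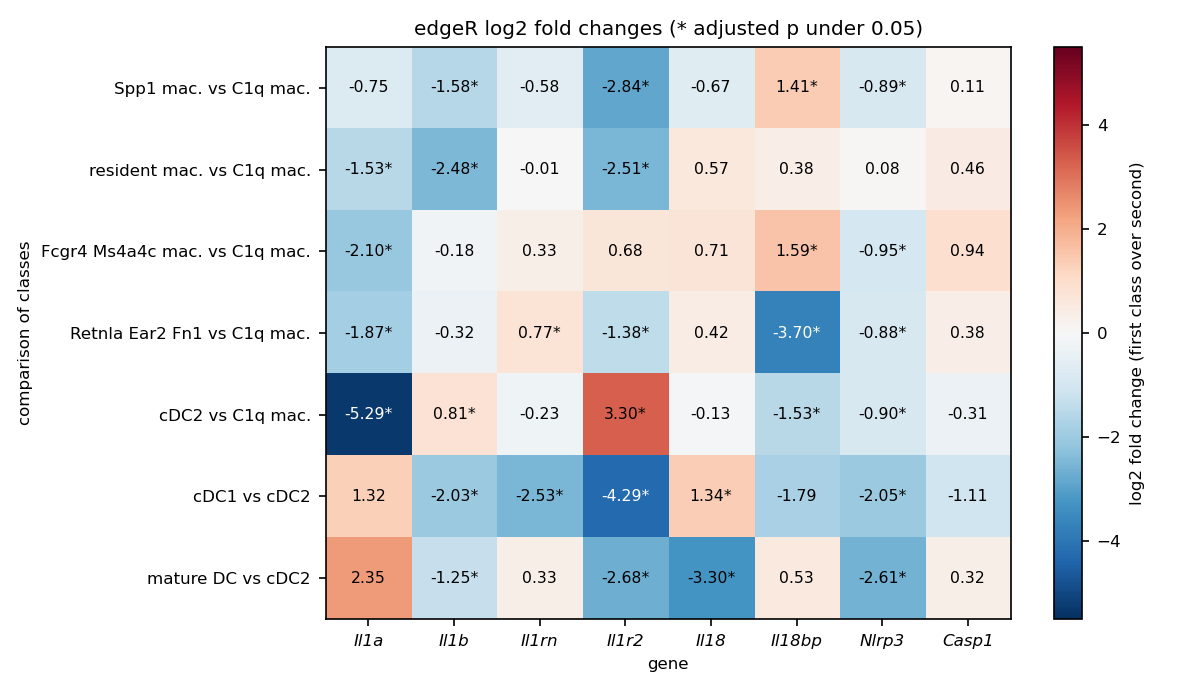
Log2 fold changes of the 8 genes (columns) in the 7 comparisons of classes (rows), from edgeR, with the first class of each row over the second. An asterisk marks an adjusted p under 0.05. Il1r2 was called in 6 of the 7 rows and Casp1 in none.

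Interleukin-1 beta RNA was the most abundant of the 8 in every class described, with 14468 UMIs in the cells of replicate 1 and 33094 in those of replicate 2. In C1q macrophage-like cells Il1b stood at 1807 CPM in replicate 1 and 3928 CPM in replicate 2, where CPM is the usual scaling of counts to the class's own sum of UMIs. In cDC2-like cells it stood at 3087 and 5935 CPM, above C1q macrophage-like cells in each library, although the ranges of both classes overlapped. The log2 fold change was 0.81 (SE 0.24, edgeR adjusted p = 0.0097), with 0.82 in replicate 1 and 0.80 in replicate 2. The call ended without the library block (adjusted p = 0.42), under DESeq2 (0.17), and with a lower clustering resolution (0.30) or a lower UMI threshold (0.15).

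Resident macrophage-like cells held the least Il1b of the 4 macrophage-like classes, at 340 and 831 CPM, both below either value in C1q macrophage-like cells. The log2 fold change was -2.48 (SE 0.26, edgeR adjusted p = 7.7e-10), with -2.48 and -2.47 in the separate libraries. Spp1 macrophage-like cells had 611 and 1620 CPM, also below both C1q values, with a log2 fold change of -1.58 (SE 0.25, edgeR adjusted p = 8.3e-06). The Spp1 call ended without the library block (adjusted p = 0.21) and with classes drawn from a score per cell, where the fold change was -0.64 (0.13), while the resident call passed in all 10 alternatives. Fcgr4 Ms4a4c macrophage-like cells had 1629 and 4304 CPM and Retnla Ear2 Fn1 cells 1170 and 3851 CPM. Neither differed from C1q macrophage-like cells by the test: the log2 fold changes were -0.18 with a 95% interval of -0.72 to 0.35, and -0.32 with -0.85 to 0.21.

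Among dendritic cells, Il1b stood at 479 and 2154 CPM in cDC1-like cells, both below the lower cDC2 value. The log2 fold change against cDC2-like cells was -2.03 (SE 0.25, edgeR adjusted p = 2.5e-08), but -2.68 in replicate 1 and -1.55 in replicate 2. Mature DC-like cells, marked by Ccr7 and Fscn1, had 1098 and 3248 CPM, with a log2 fold change of -1.25 (SE 0.25, edgeR adjusted p = 0.0002). The mature DC-like values overlapped the range of cDC2-like cells. Without the library block neither call passed (adjusted p = 0.084 in cDC1-like and 0.28 in mature DC-like cells). The mature DC-like call also ended under DESeq2 (0.059) and at a lower clustering resolution (0.097).

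**Figure D2:**
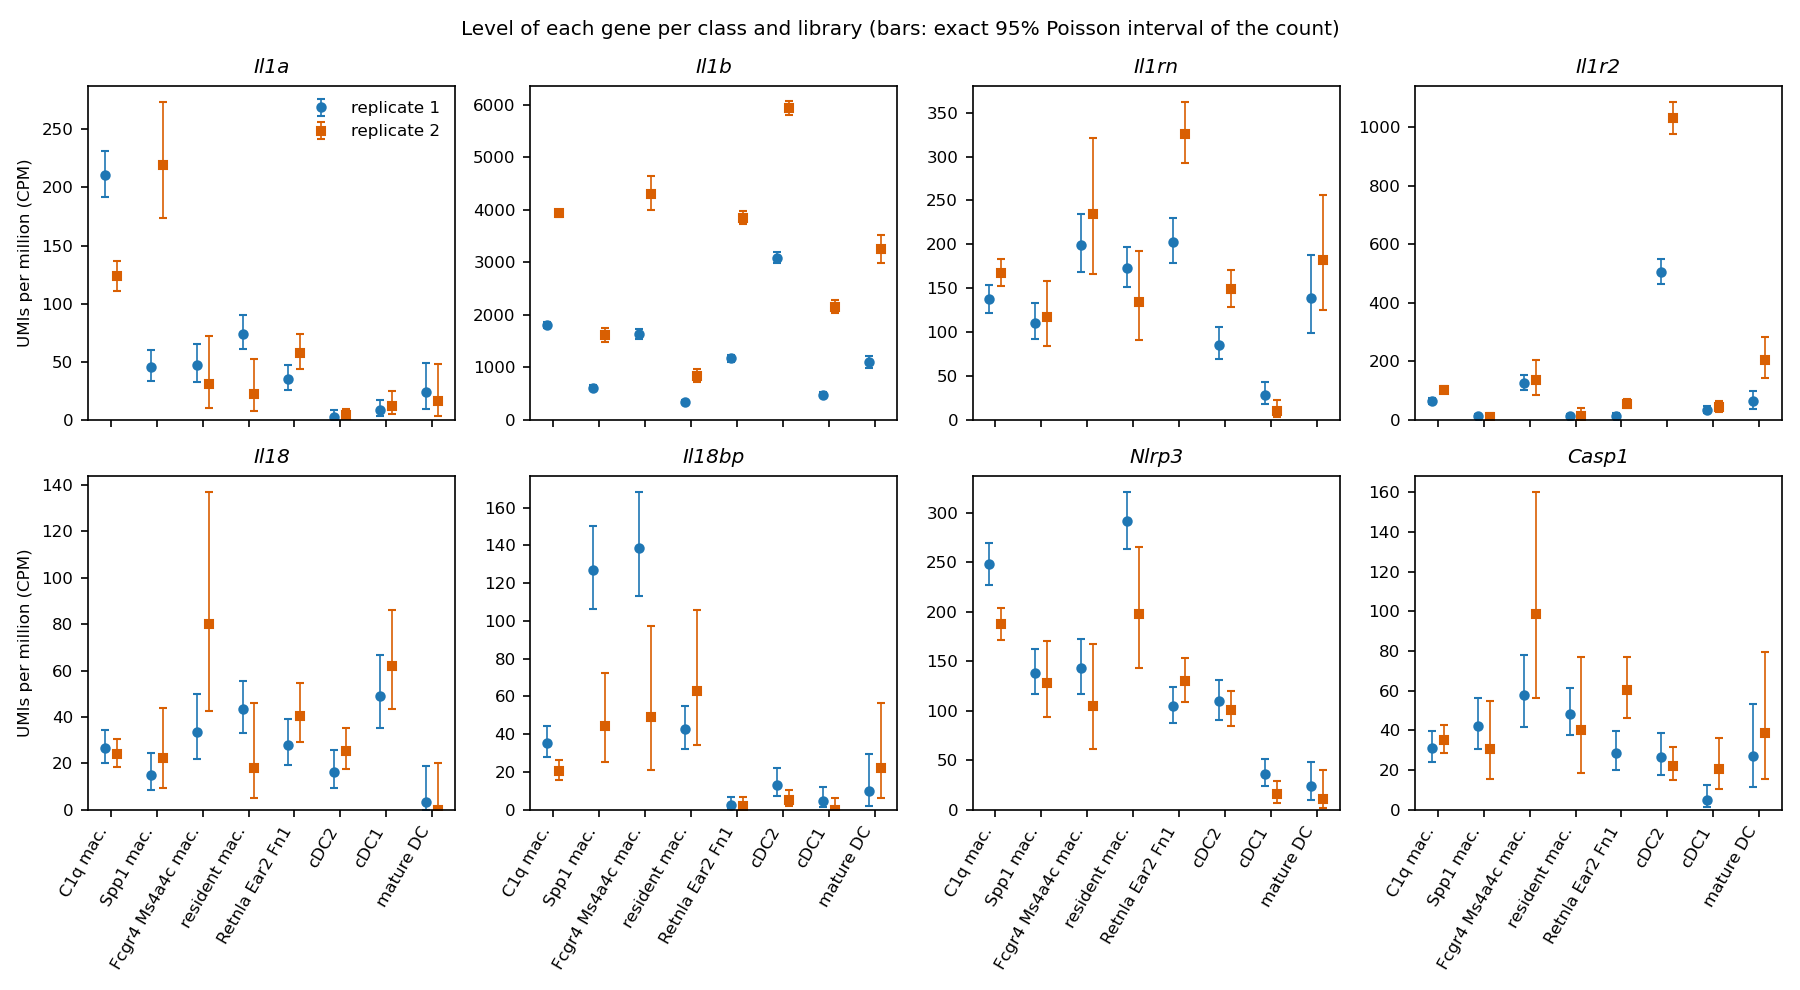
Levels in CPM (linear axes from 0) of each gene in 8 classes, with replicate 1 as circles and replicate 2 as squares and exact 95% Poisson intervals that cover counting error only. Il1b and Il1r2 were highest in cDC2-like cells in both libraries, at 5935 and 1030 CPM in replicate 2, and Il1a reached 211 CPM in C1q macrophage-like cells of replicate 1.

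Every class described held more Il1b in replicate 2. The ratio of replicate 2 to replicate 1 lay between 1.92 and 4.50 over 8 classes, with a median of 2.65, and its 95% counting interval was above 1 in 8 of 8 classes. Barcodes of at most 50 UMIs, taken as free RNA, held Il1b at 816 CPM in replicate 1 and 3365 CPM in replicate 2. In the same barcodes and order, Il1rn stood at 130 and 203 CPM, Il1r2 at 59.9 and 203, and Nlrp3 at 137 and 176. Casp1 stood there at 35.4 and 25.7 CPM, Il1a at 81.998 and 74.8, Il18bp at 32.9 and 11.2, and Il18 at 13.7 and 23.99. Some class levels lay near these values, such as Il1rn in C1q macrophage-like cells (137 and 167 CPM). Other class levels lay far above, such as Il1r2 in cDC2-like cells (505 and 1030 CPM). Il1b lay below its free RNA level in both libraries in 3 classes. These were resident macrophage-like (340 and 831 CPM), Spp1 macrophage-like (611 and 1620) and cDC1-like cells (479 and 2154). In mature DC-like cells it lay below in replicate 2 alone (3248 CPM), and in the other classes described it lay above in both libraries. Epithelial-like cells served as a class not known for the transcript, and there Il1b stood at 72.1 and 65.8 CPM. T or NK-like cells had 341 and 453 CPM. The part of free RNA in the class levels was not tested for any member. No other member moved between the libraries in the same direction beyond counting error in all 8 classes: the interval was above 1 in 4 classes for Il1r2 and 3 for Il1rn, and below 1 in 3 classes each for Il18bp and Nlrp3.

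**Figure D3:**
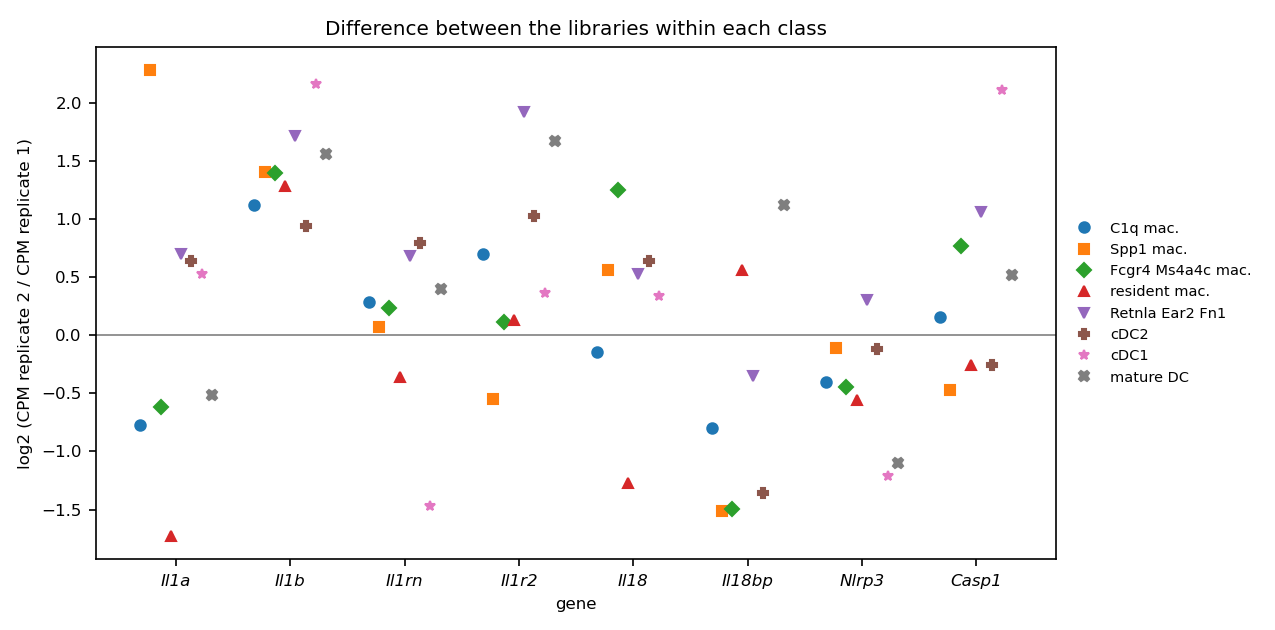
Log2 ratio of the level in replicate 2 over replicate 1 for each gene (x axis) within 8 classes (symbols); a class with 0 UMIs in a library has no point. All 8 points of Il1b lie above 0, between ratios of 1.92 and 4.50.

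Counted per cell, after every cell was thinned to 1900 UMIs so that depth was equal, 90.5% of 337 cDC2-like cells held at least 1 Il1b UMI (exact 95% binomial interval 86.9% to 93.4%). The share was 71.1% in C1q macrophage-like cells, 67.9% in Fcgr4 Ms4a4c macrophage-like cells, 59.6% in Retnla Ear2 Fn1 cells and 58.1% in mature DC-like cells. It was 43.2% in Spp1 macrophage-like, 41.8% in cDC1-like and 23.5% in resident macrophage-like cells, against 11.4% (6.79% to 17.6%) in 149 epithelial-like cells. These shares pool libraries that differ in Il1b and in their mix of classes. Within replicate 1 the share was 85.0% in cDC2-like, 63.0% in Fcgr4 Ms4a4c macrophage-like, 61.8% in C1q macrophage-like and 60.4% in mature DC-like cells. It was 48.3% in Retnla Ear2 Fn1, 37.3% in Spp1 macrophage-like, 30.8% in cDC1-like and 19.3% in resident macrophage-like cells, beside 5.5% of epithelial-like cells. Within replicate 2 it was 95.5% in cDC2-like, 91.3% in Fcgr4 Ms4a4c macrophage-like, 80.5% in C1q macrophage-like and 78.7% in Retnla Ear2 Fn1 cells. It was 62.1% in cDC1-like, 61.1% in Spp1 macrophage-like, 53.8% in mature DC-like cells and 51.2% in the resident class, beside 27.5% of epithelial-like cells. The cDC2-like share was the highest and the resident macrophage-like share the lowest of the 8 classes in each library, while mature DC-like cells changed their place in the order. Median depths before thinning were 6570 UMIs in cDC2-like and 8837 in epithelial-like cells. The median cDC2-like cell held 4 Il1b UMIs in replicate 1 and 9 in replicate 2, and the median C1q macrophage-like cell 1 and 5. In resident macrophage-like cells of replicate 1 the tenth of cells with most Il1b carried 81.8% of the class's Il1b UMIs, against 31.8% in cDC2-like cells of the same library. In replicate 2 the corresponding values were 42.6% and 27.1%, so the gap between these classes was smaller there. This share is high wherever most cells hold 0 Il1b UMIs. The 75th percentile was 0 in resident macrophage-like cells of replicate 1, and epithelial-like cells of that library had a share of 100%. It therefore cannot show a separate subset of cells.

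**Figure D4:**
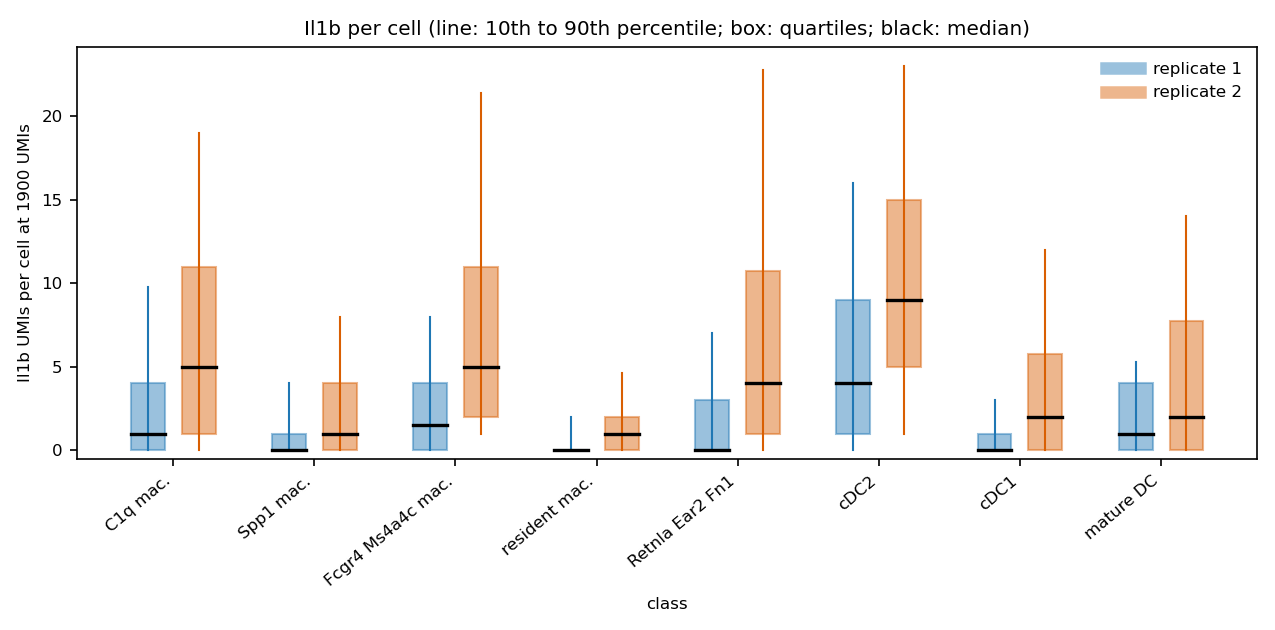
Il1b UMIs per cell at 1900 UMIs per cell in 8 classes, with replicate 1 left and replicate 2 right (box from the 25th to the 75th percentile, line from the 10th to the 90th, black bar at the median). The cDC2-like medians are 4 and 9, and the resident macrophage-like medians are 0 and 1.

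Interleukin-1 alpha RNA followed another order. C1q macrophage-like cells held Il1a at 211 and 123 CPM, and 56.3% and 63.1% of all Il1a UMIs in the cells of each library. In cDC2-like cells the gene stood at 2.86 and 4.46 CPM, from 3 and 6 UMIs. Both values were far below those of C1q macrophage-like cells, with a log2 fold change of -5.29 (SE 0.54, edgeR adjusted p = 3.3e-11). The fold change was -5.37 in replicate 1 and -4.09 in replicate 2, and the call passed in all 11 alternatives. After thinning, 0 of 337 cDC2-like cells held an Il1a UMI (exact upper limit 1.09% of cells with a UMI at that depth), against 14.8% of C1q macrophage-like cells and 0 of 149 epithelial-like cells. At the deposited depth the shares were 1.78% of cDC2-like, 30.2% of C1q macrophage-like and 0.67% of epithelial-like cells. Per 100 Il1b UMIs, C1q macrophage-like cells held 11.7 Il1a UMIs in replicate 1 and 3.14 in replicate 2, and cDC2-like cells 0.093 and 0.075.

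Il1a was also lower than in C1q macrophage-like cells in the other classes that were not Spp1 macrophage-like. Retnla Ear2 Fn1 cells had 35.2 and 57.4 CPM, with a log2 fold change of -1.87 (SE 0.36, edgeR adjusted p = 5.3e-05), -2.52 in replicate 1 and -1.09 in replicate 2. In Fcgr4 Ms4a4c macrophage-like cells it stood at 47.2 and 30.8 CPM, with -2.10 (SE 0.44, adjusted p = 0.0021). Resident macrophage-like cells had 74.3 and 22.5 CPM, with -1.53 (SE 0.37, adjusted p = 0.0037), and -2.56 in replicate 2 alone. None of the 3 overlapped the C1q values. Under DESeq2 none of the 3 calls passed (adjusted p = 0.058, 0.22 and 0.15), and without the library block the last 2 did not (0.066 and 0.054). The Fcgr4 Ms4a4c call also ended when doublets were kept (0.070), and the resident call with a score per cell (0.057).

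In Spp1 macrophage-like cells the libraries went opposite ways for Il1a. Replicate 1 had 45.1 CPM from 48 UMIs and replicate 2 had 220 CPM from 79 UMIs, so the class spanned the C1q range. The log2 fold change was -2.35 in replicate 1 and 0.69 in replicate 2, and the joint value of -0.75 did not pass (edgeR adjusted p = 0.23). It passed only where no filter on low counts was used (adjusted p = 0.045). In cDC1-like and mature DC-like cells 14 and 10 Il1a UMIs were counted in all, and neither differed from cDC2-like cells by the test (adjusted p = 0.50 and 0.16), although the latter passed with no such filter (0.033).

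The receptor antagonist Il1rn was spread more evenly over the macrophage-like classes. It stood at 137 and 167 CPM in C1q macrophage-like cells, 111 and 117 in the Spp1 class, 173 and 135 in the resident class and 199 and 234 in the Fcgr4 Ms4a4c class. The C1q level joined unlike clusters, with 92.4 and 106 CPM in the largest and 219 and 348 CPM in the next. The latter values lay above those of all 8 classes in each library. No difference from C1q macrophage-like cells passed among these 3 classes, with edgeR adjusted p between 0.20 and 1.0 and log2 fold changes of -0.58 (95% interval -1.15 to -0.0037), -0.01 (-0.57 to 0.55) and 0.33 (-0.25 to 0.90). The Fcgr4 Ms4a4c difference passed at a lower clustering resolution (1.21, 0.0028) and against the largest C1q cluster alone (0.94, 0.041). Among the 8 classes Retnla Ear2 Fn1 cells held the most Il1rn, at 203 and 326 CPM, both above the C1q values. Their log2 fold change was 0.77 (SE 0.23, adjusted p = 0.011), a call that ended without the library block (0.074) and under DESeq2 (0.21). At 1900 UMIs, 32.4% of these cells held an Il1rn UMI, against 17.1% of C1q macrophage-like and 3.36% of epithelial-like cells.

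The cDC1-like cells held the least Il1rn, at 28.7 and 10.4 CPM, against 85.7 and 149 CPM in cDC2-like cells. The ranges did not overlap, and the log2 fold change was -2.53 (SE 0.35, edgeR adjusted p = 2.7e-07), with -1.50 in replicate 1 and -3.69 in replicate 2. The call passed in all 10 alternatives. The share of cDC1-like cells with an Il1rn UMI, 2.42%, rested on 4 cells and was not above the 3.36% of epithelial-like cells, which held Il1rn at 15.6 and 5.98 CPM. Mature DC-like cells had 138 and 182 CPM, and their difference from cDC2-like cells did not pass (log2 fold change 0.33, 95% interval -0.34 to 1.01). For each 100 UMIs of Il1a and Il1b together, cDC2-like cells held 2.77 and 2.50 Il1rn UMIs, C1q macrophage-like cells 6.81 and 4.13, and resident macrophage-like cells 41.8 and 15.8. This ratio was lower in replicate 2 in each of the 8 classes, beside the higher Il1b of that library.

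The decoy receptor Il1r2 was highest in cDC2-like cells among the 8 classes described. It stood at 505 and 1030 CPM in cDC2-like cells, from 530 and 1386 UMIs, and at 63.5 and 103 CPM in C1q macrophage-like cells. The values did not overlap, and the log2 fold change was 3.30 (SE 0.30, edgeR adjusted p = 8.5e-13), positive in both libraries. The cDC2-like cells carried 51.2% and 55.6% of all Il1r2 UMIs in cells. At 1900 UMIs, 51.9% of cDC2-like cells of both libraries held an Il1r2 UMI, against 9.34% of C1q macrophage-like and 0.67% of epithelial-like cells. The exact 95% interval of the cDC2-like share, 46.5% to 57.4%, covers counting error only, and the libraries differed. In replicate 1, 65 cDC2-like cells held a UMI and 95 did not, and in replicate 2 the counts were 110 and 67.

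Both other dendritic classes lay below. In cDC1-like cells Il1r2 stood at 33.5 and 43.2 CPM, with a log2 fold change against cDC2-like cells of -4.29 (SE 0.35, edgeR adjusted p = 2.5e-13). Mature DC-like cells had 64.2 and 204 CPM, with -2.68 (SE 0.35, adjusted p = 7.2e-08). Neither class overlapped cDC2-like cells. Per 100 Il1b UMIs, cDC2-like cells held 16.4 and 17.4 Il1r2 UMIs and C1q macrophage-like cells 3.51 and 2.62. The ratio was lower in replicate 2 in 4 more classes, at 2.00 and 0.51 in Spp1, 7.69 and 3.15 in Fcgr4 Ms4a4c and 3.61 and 1.62 in the resident class, and 7.0 and 2.0 among cDC1-like cells.

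Within the macrophage-like classes Il1r2 was low in 2 of the 4. Spp1 macrophage-like cells had 12.2 and 8.34 CPM, with a log2 fold change of -2.84 (SE 0.47, edgeR adjusted p = 2.1e-05) against C1q macrophage-like cells. Resident macrophage-like cells had 12.3 and 13.5 CPM, with -2.51 (SE 0.46, adjusted p = 9.2e-05). Both lay below the C1q values, and these 2 calls, like the 3 dendritic ones, passed in every alternative run. The alternative with part of the C1q class kept its largest cluster, which held Il1r2 at 91.6 and 131 CPM. The next C1q cluster, of 274 cells, held 18.2 and 31.1 CPM, and no alternative used that cluster alone. Fcgr4 Ms4a4c macrophage-like cells had 125 and 136 CPM, above both C1q values, but did not pass (log2 fold change 0.68, adjusted p = 0.54). That difference passed at a higher clustering resolution (1.93, 3.4e-05), with more genes building the clusters (1.54, 0.00061) and with a score per cell (1.94, 0.00013). Retnla Ear2 Fn1 cells had 14.4 and 54.5 CPM, with -1.38 (SE 0.35, adjusted p = 0.0021), -1.99 in replicate 1 and -0.90 in replicate 2. The call ended without the library block (0.11), under DESeq2 (0.14) and with a score per cell (0.32).

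Neutrophils are known for Il1b and Il1r2, and 16 neutrophil-like cells were found, all in replicate 2. They held Il1b at 13888 CPM and Il1r2 at 3904 CPM, the highest of any class for both genes, with no second library to set beside them. The part of neutrophil RNA in the other classes was not tested. The 9 neutrophil markers summed to 53776 CPM in these cells and to 0 to 67.8 CPM in the 8 classes described, with 3 to 9 of the 9 at 0. In cDC2-like cells the sum was 4.76 and 11.1 CPM, with 7 and 5 of the 9 markers at 0.

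Interleukin-18 RNA was low throughout, with 312 UMIs in the cells of replicate 1 and 253 in those of replicate 2. The cDC1-like cells held 49.1 and 62.1 CPM, from 41 and 36 UMIs, and cDC2-like cells 16.2 and 25.3 CPM. The values did not overlap, and the log2 fold change was 1.34 (SE 0.34, edgeR adjusted p = 0.0039), passing in all 10 alternatives. At 1900 UMIs, 13.3% of cDC1-like cells held an Il18 UMI, against 4.75% of cDC2-like and 1.34% of epithelial-like cells. Il18 was thus the only member of the 8 called higher in cDC1-like than in cDC2-like cells.

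Mature DC-like cells had 1 Il18 UMI in replicate 1 and 0 in replicate 2, against 51 in cDC2-like cells. Their share of cells with a UMI, 1.35%, was close to the 1.34% of epithelial-like cells. The pooled level in cDC2-like cells was 10.2 times as high, with a counting interval of 1.74 to 409, and the difference passed edgeR's test (adjusted p = 0.023) but not DESeq2's (0.16). In macrophage-like and Retnla Ear2 Fn1 cells Il18 lay between 15.0 and 80.2 CPM. None of the 5 comparisons with C1q macrophage-like cells, which had 26.5 and 23.97 CPM, passed, with adjusted p between 0.33 and 0.85. With classes drawn from a score per cell, the resident macrophage-like difference passed (log2 fold change 1.09, adjusted p = 0.025).

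The binding protein of interleukin-18 was higher in 2 macrophage-like classes than in the C1q class. Il18bp stood at 127 and 44.5 CPM in Spp1 macrophage-like cells and at 139 and 49.3 CPM in Fcgr4 Ms4a4c macrophage-like cells, against 35.5 and 20.4 CPM in C1q macrophage-like cells. Neither class overlapped the C1q values. The log2 fold changes were 1.41 (SE 0.31, edgeR adjusted p = 0.0013) and 1.59 (SE 0.33, adjusted p = 0.0022). Both calls ended without the library block (0.073 and 0.13), under DESeq2 (0.29 and 0.53) and with a score per cell, where the fold changes were 0.68 and 0.64. The Fcgr4 Ms4a4c call also ended in 3 more of the alternatives, with a fold change of 0.35 at a lower clustering resolution. Resident macrophage-like cells had 42.6 and 62.9 CPM, with a log2 fold change of 0.38 that did not pass (95% interval -0.41 to 1.17).

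Retnla Ear2 Fn1 cells held 3 and 2 Il18bp UMIs, or 2.40 and 1.88 CPM, far below the 75 and 58 UMIs of C1q macrophage-like cells. The log2 fold change was -3.70 (SE 0.57, edgeR adjusted p = 1.1e-06), with -3.04 in replicate 1 and -2.47 in replicate 2, where a small prior count shrinks the values of single libraries. The call passed in all 11 alternatives. In cDC2-like cells Il18bp stood at 13.3 and 5.20 CPM, below both C1q values, with -1.53 (SE 0.42, adjusted p = 0.0047), a call that ended without the library block and under DESeq2 (0.12 in each). The shares at 1900 UMIs in Retnla Ear2 Fn1 cells (0.61%), cDC1-like cells (0.61%) and cDC2-like cells (1.78%) were not above the 2.68% of epithelial-like cells, which held Il18bp at 21.6 and 5.98 CPM. In Spp1 macrophage-like cells 15.1% held an Il18bp UMI, and in C1q macrophage-like cells 5.12%.

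Among the 8 classes the sensor Nlrp3 was highest in C1q and resident macrophage-like cells. It stood at 248 and 187 CPM in C1q macrophage-like cells and 292 and 198 CPM in resident macrophage-like cells, which overlapped (log2 fold change 0.08, 95% interval -0.40 to 0.56). At 1900 UMIs 39.0% of resident and 31.3% of C1q macrophage-like cells held an Nlrp3 UMI, against 0.67% of epithelial-like cells. Spp1 macrophage-like cells had 138 and 128 CPM, with -0.89 (SE 0.23, edgeR adjusted p = 0.0065). Fcgr4 Ms4a4c macrophage-like cells had 143 and 105 CPM, with -0.95 (SE 0.25, adjusted p = 0.026). Retnla Ear2 Fn1 cells had 105 and 130 CPM, with -0.88 (SE 0.22, adjusted p = 0.0016), and cDC2-like cells 110 and 101 CPM, with -0.90 (SE 0.22, adjusted p = 0.0013). None of these 4 classes overlapped the C1q values.

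These 4 differences depended on which C1q cells were taken. Of the 3 clusters in the C1q class, the largest, of 485 cells, held Nlrp3 at 196 and 148 CPM, and the next, of 274 cells, at 347 and 307 CPM. With the largest cluster alone, an alternative chosen after the data were seen, the log2 fold changes were -0.55 in Spp1 macrophage-like cells (edgeR adjusted p = 0.16), -0.61 in Fcgr4 Ms4a4c macrophage-like cells (0.30), -0.54 in Retnla Ear2 Fn1 cells (0.066) and -0.56 in cDC2-like cells (0.060). The Spp1 and Fcgr4 Ms4a4c calls also ended without the library block (0.11 and 0.30) and under DESeq2 (0.12 and 0.28), and at a lower clustering resolution the Fcgr4 Ms4a4c fold change was 0.01. The Fcgr4 Ms4a4c call ended as well at a lower UMI threshold (0.087), with more genes building the clusters (0.58) and with a score per cell (0.18). The Spp1 and Retnla Ear2 Fn1 calls ended at that lower resolution too (0.33 and 0.18), at a lower UMI threshold (0.32 and 0.093) and with a score per cell (0.50 and 0.093). The same 2 clusters differed in other members. The largest held more Il1a (244 and 150 CPM against 163 and 50.1) and Il1r2 (91.6 and 131 against 18.2 and 31.1), and less Il1rn (92.4 and 106 against 219 and 348). No test was made between clusters of the class.

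Nlrp3 was lower still in the other dendritic cells. In cDC1-like cells it stood at 35.9 and 15.5 CPM, with a log2 fold change against cDC2-like cells of -2.05 (SE 0.30, edgeR adjusted p = 1.1e-06), -1.55 in replicate 1 and -2.64 in replicate 2. Mature DC-like cells had 23.6 and 11.0 CPM, from 7 and 2 UMIs, with -2.61 (SE 0.44, adjusted p = 1.5e-05). Neither overlapped cDC2-like cells. The cDC1-like call ended with a score per cell (-0.90, adjusted p = 0.066), and the mature DC-like call passed in all 10 alternatives.

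Casp1, the protease of the inflammasome, was called in none of the 7 comparisons. It stood at 31.3 and 34.9 CPM in C1q macrophage-like cells, 42.3 and 30.6 in Spp1 macrophage-like cells, 48.3 and 40.4 in the resident class and 28.8 and 60.2 in Retnla Ear2 Fn1 cells. The values of cDC2-like cells were 26.7 and 22.3 CPM and those of mature DC-like cells 27.0 and 38.7 CPM. The highest were in Fcgr4 Ms4a4c macrophage-like cells, at 57.9 and 98.7 CPM from 43 and 16 UMIs, above both C1q values but not past the test (log2 fold change 0.94, 95% interval 0.22 to 1.65, edgeR adjusted p = 0.17). The lowest were in cDC1-like cells, at 4.79 and 20.7 CPM, with -1.11 against cDC2-like cells (95% interval -2.12 to -0.09, adjusted p = 0.13). The share of cDC1-like cells with a Casp1 UMI was 3.03%, beside 3.36% of epithelial-like cells, each from 5 cells. Epithelial-like cells held Casp1 at 24.5 and 21.9 CPM, so they are no floor for this gene. The cells of the libraries held 385 and 313 Casp1 UMIs in all.

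**Figure D5:**
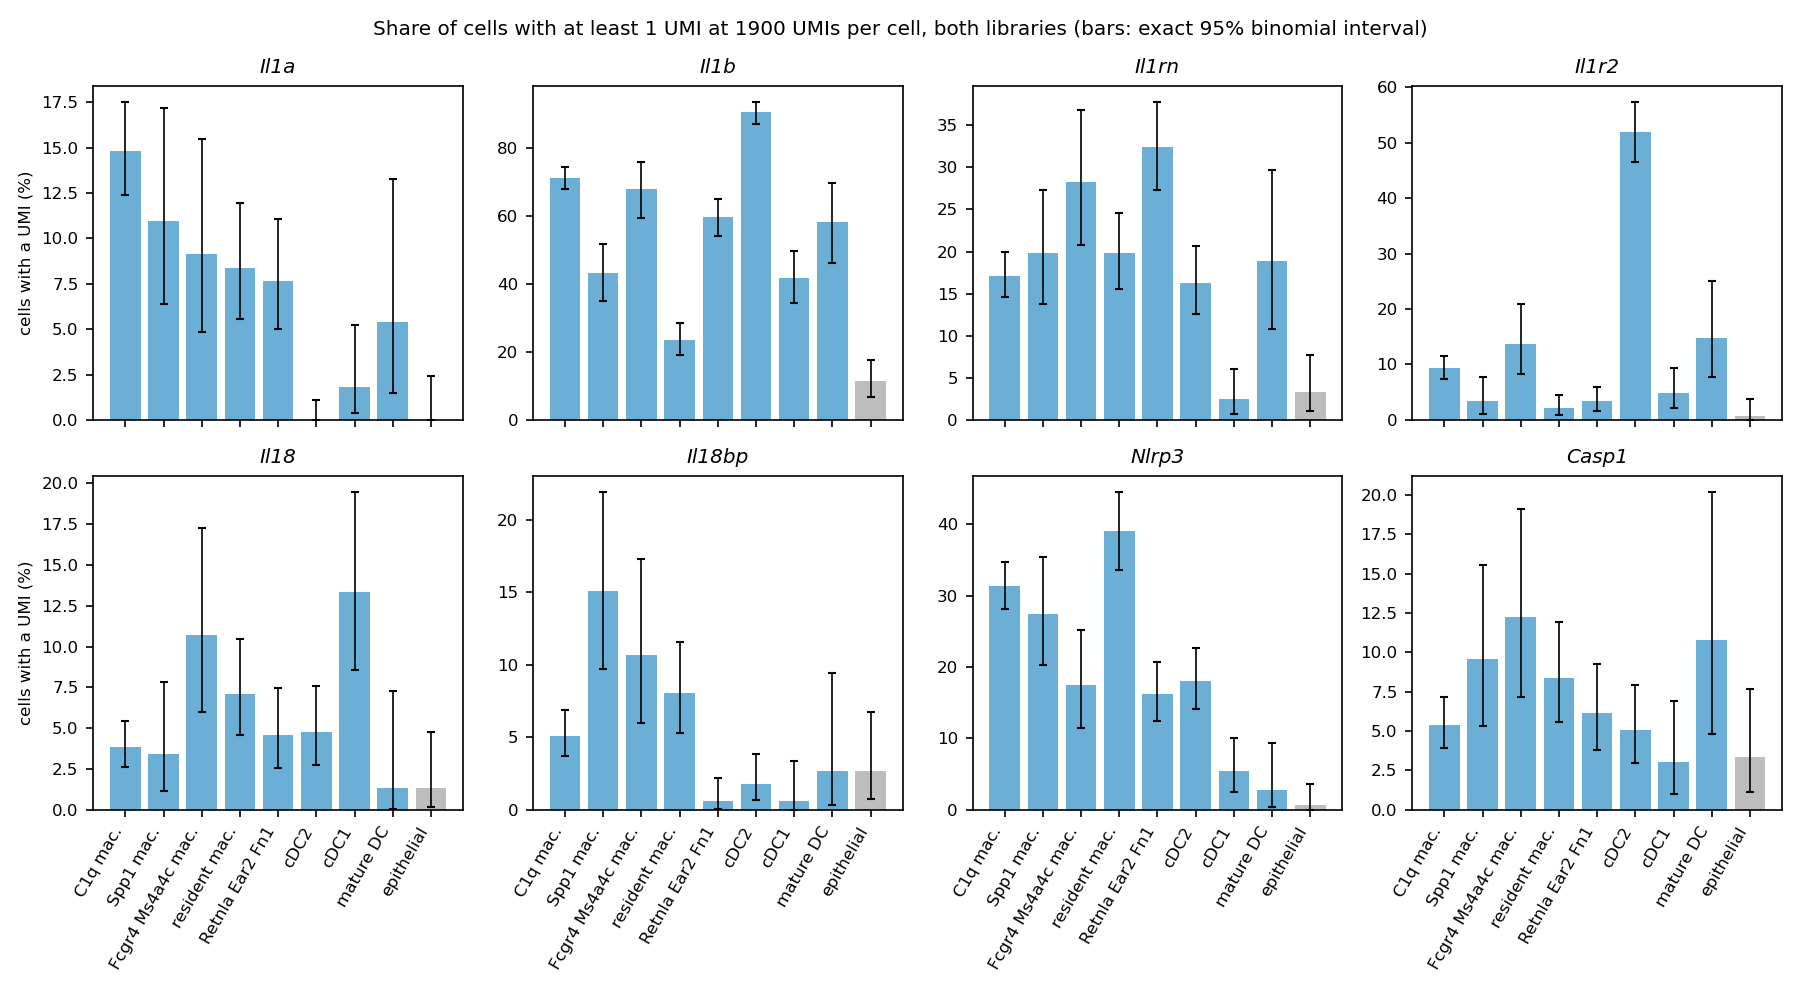
Share of cells with at least 1 UMI of each gene (percent, linear axes from 0) after thinning to 1900 UMIs per cell, over both libraries, in 8 classes and in epithelial-like cells (grey), with exact 95% binomial intervals. The intervals pool the libraries and cover counting error only. In cDC2-like cells the share is 90.5% for Il1b, 51.9% for Il1r2 and 0 for Il1a.

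A cluster of 263 cells that raised no marker list and was led by Sirpb1c, Thbs1 and Vegfa is left unnamed. It held Il1b at 1649 and 5474 CPM, Il1rn at 217 and 235, Il1r2 at 95.8 and 341 and Nlrp3 at 221 and 188 CPM. A cluster of 49 cells led by Cd7, Ly6c2 and Ifitm1, which raised 5 of 8 plasmacytoid DC markers and 4 of cDC2 but had leading genes of other lists, is also unnamed and had Il1r2 at 104 and 393 CPM and no Il18 UMI. Both were left out of the comparisons. Cycling cells, which mix several myeloid types, had Il1b at 1174 and 2367 CPM.

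The pathway around the members was followed in lists of other genes. Of 7 receptors of the family, Il1r1, the signalling receptor of interleukin-1, had 0 to 5 UMIs in each of the 8 classes and stood at 109 ± 24.6 CPM (SD, n = 2) in 50 fibroblast-like cells. Il18r1 stood at 40.5 ± 33.2 CPM in T or NK-like cells and at 0 to 1.11 CPM in the 8 classes. In Retnla Ear2 Fn1 cells 3 of 7 receptors were called higher than in C1q macrophage-like cells, where 11.2% of all genes were, led by Il1rl1, the interleukin-33 receptor (log2 fold change 3.58, SE 0.42, edgeR adjusted p = 1.5e-09). In cDC2-like cells 4 of 7 were, against 11.6% of all genes, with Il18rap at 3.56 (SE 0.77, 0.00039) and the inhibitory receptor Sigirr at 3.02 (SE 0.62, 0.00017). These genes were scarce, with 28 Il18rap UMIs in cDC2-like cells and 0 in cDC1-like cells, a level at least 5.51 times as high against a floor of 3 counts over both libraries. Receptor medians were 1.64 in Retnla Ear2 Fn1 and 1.66 in cDC2-like cells. In cDC1-like cells 2 of 7 were called lower, against 6.22% of all genes. The median there, -2.71, was the value of Il1rl1, from 2 UMIs against 24 in cDC2-like cells. No receptor was called in the other 4 comparisons. Medians there were -1.96 in Spp1, -0.30 in resident and -1.37 in Fcgr4 Ms4a4c macrophage-like and -2.21 in mature DC-like cells. All genes called there were 8.53%, 9.09%, 1.91% and 12.7%, in that order. Of 6 other ligands found, only Il33 passed the filter, with 0 to 2 UMIs in each of the 8 classes and 157 ± 68.6 CPM in fibroblast-like cells.

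Among 14 other genes listed as inflammasome sensors 6 passed the filter. The part of each in inflammasomes was not tested. Nlrc5 was higher in Fcgr4 Ms4a4c macrophage-like than in C1q macrophage-like cells (log2 fold change 1.93, SE 0.53, edgeR adjusted p = 0.034) and in mature DC-like than in cDC2-like cells (2.09, SE 0.53, 0.0039). Naip2, a sensor of bacterial secretion systems, was lower in cDC2-like than in C1q macrophage-like cells (-2.72, SE 0.62, 0.00067). Mefv, which encodes pyrin, was higher there (1.42, SE 0.36, 0.0024). Retnla Ear2 Fn1 cells had less Aim2 (-1.27, SE 0.44, edgeR adjusted p = 0.030) and more Mefv (1.23, SE 0.37, 0.011) than C1q macrophage-like cells. Against cDC2-like cells, Mefv was lower in cDC1-like (-1.61, SE 0.50, 0.027) and mature DC-like cells (-3.33, SE 0.98, 0.016), the latter from 1 UMI. None of the 6 was called in Spp1 or resident macrophage-like cells, where 8.53% and 9.09% of all genes were. In each other comparison at most 1 was called higher and 1 lower. All genes called there were 1.91% in Fcgr4 Ms4a4c macrophage-like, 22.9% in Retnla Ear2 Fn1 and 23.9% in cDC2-like cells. They were 10.6% in cDC1-like and 12.7% in mature DC-like cells.

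Of 15 tested genes for the adaptor, other caspases, the pore and regulators, Pycard, the adaptor ASC, was the one called higher in Spp1 macrophage-like cells (442 ± 35.3 against 204 ± 9.75 CPM, log2 fold change 0.94, SE 0.23, edgeR adjusted p = 0.0034). Casp4, the caspase of the noncanonical pathway, was called lower there (-0.97, SE 0.28, 0.020). In resident macrophage-like cells P2rx7, the ATP-gated channel, was higher (1.15, SE 0.37, 0.040), as was Serpinb1a (3.51, SE 0.59, 2.0e-05), with 2.89 in replicate 1 and 0.36 in replicate 2. P2rx7 was lower in cDC2-like cells (-2.34, SE 0.55, 0.00092). Serpinb1a, an inhibitor of neutrophil serine proteases and caspases, stood at 1.94 CPM in C1q macrophage-like and 66.1 ± 15.5 CPM in Retnla Ear2 Fn1 cells (4.98, SE 0.45, 1.4e-12). The counts called were 4 higher and 3 lower in the latter, where 11.2% and 11.6% of all genes were. In cDC2-like cells they were 2 and 2, near the 11.6% and 12.3% of all genes. In cDC1-like cells 0 were higher and 5 lower, led by Panx1, Serpinb1a and Ninj1, against 4.37% and 6.22% of all genes. Panx1 was scarce, with 0 UMIs in cDC1-like and 22 in cDC2-like cells, a level at least 4.33 times as high against a floor of 3 counts. In mature DC-like cells 1 was higher and 2 lower, against 5.66% and 7.05%, and in Fcgr4 Ms4a4c macrophage-like cells none was called, with a median log2 fold change of -0.11 beside -0.11 for all genes.

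Of 12 tested genes of MyD88 and IRAK signalling, at most 2 were called in any comparison. In cDC2-like cells 2 were higher and 0 lower, against 11.6% and 12.3% of all genes. Retnla Ear2 Fn1 cells had 1 higher and 1 lower, against 11.2% and 11.6%. In cDC1-like cells 1 was lower, against 6.22% of all genes, and in mature DC-like cells 2 were, against 7.05%. Ikbkb, a kinase that activates NF-kB, was higher in cDC2-like than in C1q macrophage-like cells (log2 fold change 1.48, SE 0.22, edgeR adjusted p = 6.9e-07) and lower in cDC1-like than in cDC2-like cells (-1.11, SE 0.25, 0.0012). Myd88 was lower in mature DC-like than in cDC2-like cells (-2.44, SE 0.69, 0.011).

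The 20 NF-kB early response genes, chemokines, cytokines and feedback inhibitors induced soon after stimulation, were mostly lower beside Il1b in 2 comparisons. In Spp1 macrophage-like cells 11 of 20 were called lower and 0 higher, where 4.93% of all genes were lower, with a median log2 fold change of -1.04 beside -0.05 for all genes. Ccl4 stood at 460 ± 320.4 CPM against 3503 ± 2343 in C1q macrophage-like cells, with -3.05 (SE 0.38, edgeR adjusted p = 4.8e-08). In cDC1-like cells 14 of 20 were lower than in cDC2-like cells and 0 higher, where 6.22% of all genes were lower, with a median of -1.32 beside -0.01. Ptgs2, the inducible cyclooxygenase, led by counts, at 5.32 ± 2.64 against 168 ± 117 CPM (-4.75, SE 0.46, 2.7e-11).

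In the other comparisons the list was not mostly called in the direction of Il1b. In resident macrophage-like cells, where Il1b was lower, 1 of 20 was called lower, Nfkbie (log2 fold change -1.29, SE 0.26, edgeR adjusted p = 0.00039), against 4.18% of all genes, and Cxcl2 stood at 6348 ± 2143 CPM beside 5520.2 ± 3343 in C1q macrophage-like cells. Retnla Ear2 Fn1 cells had 4 higher and 6 lower, against 11.2% and 11.6% of all genes, with Il6 at 3.92 (SE 0.52, 4.6e-08; 2.12 in replicate 1 and 4.92 in replicate 2) and Tnf at -3.23 (SE 0.26, 3.2e-14). In cDC2-like cells 4 were higher and 8 lower, against 11.6% and 12.3% of all genes, with Cxcl1 at -4.52 (SE 0.40, 7.6e-13) and Cxcl2 at -3.10 (SE 0.29, 5.0e-12) while Il1b was higher. Mature DC-like cells had 5 higher and 1 lower, against 5.66% and 7.05% of all genes, led by Relb (2.48, SE 0.24, 3.4e-11), and Il1b was lower. Fcgr4 Ms4a4c macrophage-like cells had 3 lower, all CXC chemokines, against 0.579% of all genes, with Cxcl1 at -3.16 (SE 0.39, 2.1e-07). In cDC2-like cells the list's median log2 fold change was 0.26 beside -0.06 for all genes, the direction of Il1b. The medians were 0.14 beside 0.01 in resident macrophage-like and 0.12 beside -0.17 in mature DC-like cells. They were -0.26 beside -0.03 in Retnla Ear2 Fn1 cells and -0.68 beside -0.11 in Fcgr4 Ms4a4c macrophage-like cells.

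Across the 16 sums of the 8 classes in both libraries, which share library and depth, the level of Il1b followed that of Il1r2 most closely among the members (Pearson r = 0.75 on log2 CPM) and was unrelated in direction to Il1a (-0.16) or Nlrp3 (-0.13). Il1rn and Casp1 had r = 0.69. Among 1984 other genes that built no cluster, those most like Il1b were Dctn1 (0.77), the NF-kB inhibitor gene Nfkbie (0.73) and Bcl2a1a (0.71). Those most like Il1rn were Ccl9 (0.94) and Nfkbiz (0.87), and those most like Nlrp3 were Frrs1, Dab2 and Por (0.93 each). Il1r2 lay closest to Eprs (0.85), Il1a to Atp2b1 (0.83), Il18 to Fam188a (0.93), Il18bp to Lair1 (0.87) and Casp1 to Tuba1b (0.85). These coefficients describe 16 points and carry no test.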

How the data were processed

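Single-cell libraries were made with 10x Genomics 3′ chemistry, per the labels' protocols, and processed with Cell Ranger 2.2.0 on mm10, per the submitters' processing notes; annotation and settings are not stated there. Raw UMI counts were deposited by the authors for 27998 genes and 737280 barcodes per library, unfiltered. Cells passed thresholds of 2112 and 1905 UMIs (99th percentile of the top 3000 barcodes divided by 10), at least 200 genes and at most 10% mitochondrial UMIs; 30 and 12 doublets were removed by Scrublet score. Clusters (scanpy 1.11.5, leidenalg 0.10.2, resolution 1.0) were built from 13903 genes that exclude the members and pathway lists. Classes needed at least 3 fixed markers raised at a log2 fold of 1 or more in at least 20% of cells; no authors' annotation was used. Intervals of levels, of shares of cells and of ratios of counts cover counting error only.

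Counts were summed per library and class (at least 20 cells in each library; 12 classes) and fitted in R 4.3.3 with the quasi-likelihood test of edgeR 4.0.16 after filterByExpr and TMM scaling, with Benjamini-Hochberg adjustment over 4664 held-out genes. SE is the log2 fold change over the root of F. Intervals of log2 fold changes are the value plus or minus the SE times a t quantile on the 11 residual degrees of freedom. They rest on the spread in the fit and are not limited to counting error. The library was a block because its classes share a capture; deviations of classes from the same library correlated at a median of 0.087 over 66 pairs of classes. Held-out genes correlate with those that built the clusters, and classes and tests use the same cells. Printed CPM are unscaled, fold changes TMM-scaled. The members and lists were chosen with earlier results of these data known. Named genes were the 8 members, up to 3 called genes per list and comparison by fold size with the same sign in both libraries, and the 3 genes most correlated with each member. Of 83 listed pathway symbols 77 were found. Scripts were tested on simulated data. Alternatives were DESeq2 1.42.0, RLE scaling, no low-count filter, no block, other cell and cluster settings, and a score per cell.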

Additional observations from a re-analysis of the deposited data

How the results depend on the processing

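Of 29 called member results, 11 kept their call in every alternative run: Il1r2 in Spp1 and resident macrophage-like and in all 3 dendritic classes, Il1b in resident macrophage-like cells, Il1a in cDC2-like, Il18bp in Retnla Ear2 Fn1, Il1rn and Il18 in cDC1-like and Nlrp3 in mature DC-like cells. DESeq2 ended 13 calls, and the fit with no replicate block, which leaves the pairing of classes by library out, ended 13. No replicate block gave 219 calls over all genes in Spp1, 258 in resident and 46 in Fcgr4 Ms4a4c macrophage-like cells, against 398, 424 and 89 with it, and 816, 861, 350 and 503 in the other 4 comparisons. At 1000 UMIs the resident count was 785. The Fcgr4 Ms4a4c count was 210 at resolution 0.5, 299 at 2.0, 147 at 1000 UMIs, 174 with a score per cell and 138 with the largest C1q cluster alone, a setting chosen after the data were seen. No resident class was found at resolution 0.5.

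Signs turned in results that were not called, with 1 exception, Nlrp3 in Fcgr4 Ms4a4c cells at resolution 0.5 (0.014). Il1rn in Spp1 cells became 0.20 at resolution 0.5, 0.19 at 1000 UMIs, 0.17 with a score per cell and 0.035 with the largest C1q cluster; in resident cells 0.056 with RLE, 0.31 at resolution 2.0, 0.088 with doublets kept, 0.57 at 1000 UMIs, 0.25 with more genes building clusters, 0.38 with a score and 0.61 with the largest cluster; in cDC2-like cells 0.23 at resolution 0.5, 0.19 at 1000 UMIs and 0.38 with the largest cluster. Casp1 in Spp1 cells became -0.0018 at 1000 UMIs, -0.054 with more genes and -0.28 with a score, and in Retnla Ear2 Fn1 cells -0.0052 with a score. Il1b in Fcgr4 Ms4a4c cells became 0.11 at resolution 0.5, 0.073 at 2.0, 0.40 with more genes and 0.15 with a score, and Il18 there -0.035 with more genes. Il18 in cDC2-like cells became 0.00019 with a score and 0.14 with the largest cluster. Il18bp became -0.13 in resident and 1.45 in cDC1-like cells with a score. The cause was not tested.

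RLE scaling moved the median of all genes by 0.12 in mature DC-like cells, where 57.1% of calls were then higher against 44.5%, and DESeq2 by 0.17 (64.1%) there and by 0.11 in Fcgr4 Ms4a4c cells (83.3% against 69.7%). With DESeq2 53.9% were higher in Spp1 cells, against 42.2%. Without thinning, the share of cells of the 8 classes with a UMI was 18.6% for Il1a, 39.1% for Il1rn, 23.9% for Il1r2, 15.5% for Il18, 13.4% for Il18bp, 49.4% for Nlrp3 and 19.1% for Casp1. In the single libraries the thinned shares were 7.09% to 9.99% for Il1a, 49.8% to 79.3% for Il1b, 18.4% to 20.9% for Il1rn, 9.57% to 19.8% for Il1r2, 4.92% to 5.88% for Il18, 3.20% to 6.02% for Il18bp, 21.8% to 26.1% for Nlrp3 and 6.31% to 6.86% for Casp1. With 1 library left the fit has no residual degrees of freedom, so fold changes of single libraries carry no test.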
